A study of Mus musculus with 2040 samples.

Results

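The results concern 10 genes that make, carry or break down glycine, L-serine and D-serine: the glycine carrier Slc6a9, the amino acid exchanger Slc7a10, the serine synthesis enzymes Phgdh, Psat1 and Psph, the D-serine enzymes Srr and Dao, and the glycine cleavage genes Gldc, Amt and Gcsh. They were chosen by name for their known roles, with earlier results of these data known, and all 10 were found among the 32245 gene columns of a table of single-cell RNA levels. The cells came from brains of 47 C57Bl/6J mice, each given 1 of 30 viral vectors (adeno-associated virus, AAV) built around a named enhancer or promoter, and single cells carrying the fluorescent protein SYFP2 were collected by flow sorting. The dissected tissues were VISp (primary visual cortex, 41 mice, 27 vectors, 1785 cells), CBX (cerebellar cortex, 2 mice, vector eHGT_375m, 81 cells) and MB/HB (midbrain and hindbrain, 4 mice, vectors eHGT_381h and MGT_E160m, the remaining cells). The labels give neither the age nor the sex of the mice. No mouse without a vector entered, and the sort kept only SYFP2-positive cells. Each vector was used in 1 tissue, so tissue and vector cannot be told apart.

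Glycine and D-serine are the co-agonists that open NMDA-type glutamate receptors together with glutamate, and glycine is also an inhibitory transmitter in brainstem and spinal cord. L-serine is made from a glycolytic intermediate by PHGDH, PSAT1 and PSPH in turn. Serine racemase, the product of Srr, turns it into D-serine, and D-amino acid oxidase, the product of Dao, destroys D-serine. GlyT1, the product of Slc6a9, takes up glycine, which the mitochondrial glycine cleavage system breaks down; there Gldc encodes the decarboxylase, Amt the aminomethyltransferase and Gcsh the carrier protein. Astrocytes are regarded as the main site of serine synthesis in brain, and cerebellar and hindbrain astrocytes as a main site of D-amino acid oxidase.

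Cells were put into classes by clustering on genes other than these pathways, and clusters were called astrocyte-like, oligodendrocyte-like or neuron-like from marker genes. Astrocyte-like cells numbered 967 (737 from VISp, 81 from CBX, the rest from MB/HB), oligodendrocyte-like cells 948 and neuron-like cells 75, and 50 cells stayed unnamed. The 13 astrocyte markers were found in all 3 tissues: their sum per mouse was 33217 to 43216 CPM (reads of a gene per 1000000 reads of the cell) in VISp, 38178 to 39851 in CBX and 33118 to 42224 in MB/HB astrocyte-like cells, against 235.9 to 1275 in VISp oligodendrocyte-like cells. Mostly different clusters held the tissues within the class. Of the 81 CBX cells 78 lay in a cluster led by Slc38a1, Vim and Lcat, which also held 6 MB/HB cells of 1 mouse. Most MB/HB cells lay in one led by Trpm3, Cd38 and Atp1b2, and VISp cells filled clusters led by F3, S1pr1 and Mfge8. The replicate was the mouse, with at least 10 cells of the class. This left 19 VISp, 2 CBX and 4 MB/HB mice for astrocyte-like cells, 22 VISp mice for oligodendrocyte-like cells, and 2 VISp mice and 1 MB/HB mouse for neuron-like cells. Median depth was 431572 reads per astrocyte-like cell in VISp, 375425 in CBX and 411220.0 in MB/HB. A level is the mean CPM over the cells of a class in 1 mouse, and its error is the SD over mice. Mice are lettered A and B in CBX and A to D in MB/HB; MB/HB mice A and B received eHGT_381h and mice C and D received MGT_E160m, and values are given in that order.

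**Figure D1:**
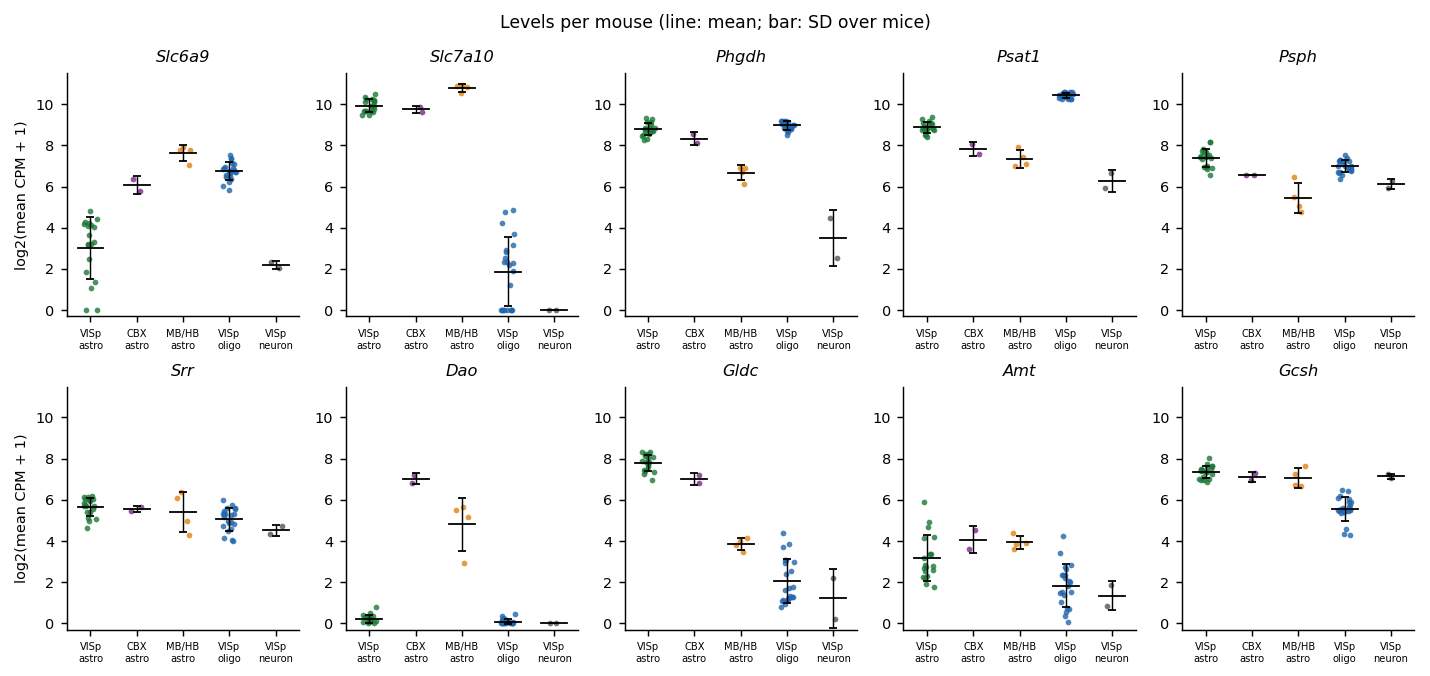
Each point is 1 mouse, plotted as log2(mean CPM + 1) over its astrocyte-like (VISp, CBX, MB/HB), oligodendrocyte-like (VISp) or neuron-like (VISp) cells, with means and SD over 19, 2, 4, 22 and 2 mice. Dao stood at 112.9 and 149.04 CPM in the CBX mice and at most at 0.711 CPM in the VISp mice. Slc7a10 stood at 0 to 28.1 CPM in oligodendrocyte-like cells and at 0 in neuron-like cells of the mice shown.

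Per kilobase of exon the order of the genes differed between tissues and classes. In VISp astrocyte-like cells the mean level per kilobase was 471.3 ± 102.03 CPM for Slc7a10, 179.8 ± 37.8 for Phgdh, 112.8 ± 20.9 for Psat1 and 105.5 ± 23.3 for Gcsh (SD, n = 19), and the last 2 did not differ beyond their spread. Psph (40.4 ± 12.3) and Gldc (37.6 ± 9.6) followed, also within their spread, then Srr (11.3 ± 3.19), Amt (4.8 ± 5.55) and Slc6a9 (2.07 ± 1.53), and Dao came last at 0.0634 ± 0.058 CPM per kilobase. In CBX Dao stood in the fifth place, at 44.4 ± 8.65 CPM per kilobase (SD, n = 2). In MB/HB Slc6a9, at 39.1 ± 9.14 CPM per kilobase, stood level with Phgdh (41.5 ± 9.59) and Psat1 (39.2 ± 12.3), and Gldc came last at 2.25 ± 0.473 (SD, n = 4). In VISp oligodendrocyte-like cells Psat1 led at 324.4 ± 28.1 CPM per kilobase, ahead of Phgdh at 202.04 ± 26.3 (SD, n = 22).

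In the GENCODE annotation of the build mm10 the genes lie as follows: Slc6a9 at chr4:117834506-117875198, Slc7a10 at chr7:35186385-35201114, Phgdh at chr3:98313170-98339990, Psat1 at chr19:15904678-15947337, Psph at chr5:129765558-129787449, Srr at chr11:74906359-74925948, Dao at chr5:114003703-114025682, Gldc at chr19:30098447-30175429, Amt at chr9:108296853-108302302 and Gcsh at chr8:116981810-116993537. Upstream sequence is shown for Dao, whose level was higher in CBX and MB/HB than in VISp, and for Gldc, Phgdh and Psat1, whose levels were lower in MB/HB, to set the letters before their starts side by side. Each run is 5′ to 3′ on the gene's strand, from the 250 bases before the most upstream RefSeq start (build GRCm38.p6), less bases that an annotated exon covers. The Psat1 run lies within the span that GENCODE gives the gene, not before it. Capitals mark CCAAT or, for the other strand, ATTGG, the letters of a common promoter motif, which was searched after the letters had been seen.
Dao, chr5:114003485-114003702, + strand: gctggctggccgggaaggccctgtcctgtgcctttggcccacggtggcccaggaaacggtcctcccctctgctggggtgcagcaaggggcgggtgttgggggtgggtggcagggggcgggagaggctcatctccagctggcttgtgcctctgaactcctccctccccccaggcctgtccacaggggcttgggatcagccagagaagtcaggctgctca
Gldc, chr19:30175442-30175691, - strand: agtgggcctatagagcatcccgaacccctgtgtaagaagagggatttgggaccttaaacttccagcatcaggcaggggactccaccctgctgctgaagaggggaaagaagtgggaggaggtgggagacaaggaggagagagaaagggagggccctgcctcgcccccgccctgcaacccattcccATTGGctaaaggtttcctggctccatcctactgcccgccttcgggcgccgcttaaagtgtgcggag
Phgdh, chr3:98339991-98340219, - strand: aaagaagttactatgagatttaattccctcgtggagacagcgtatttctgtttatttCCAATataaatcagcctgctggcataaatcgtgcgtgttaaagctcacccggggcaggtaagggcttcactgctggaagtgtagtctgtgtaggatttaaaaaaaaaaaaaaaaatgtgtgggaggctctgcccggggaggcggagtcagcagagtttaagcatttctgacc
Psat1, chr19:15925060-15925309, - strand: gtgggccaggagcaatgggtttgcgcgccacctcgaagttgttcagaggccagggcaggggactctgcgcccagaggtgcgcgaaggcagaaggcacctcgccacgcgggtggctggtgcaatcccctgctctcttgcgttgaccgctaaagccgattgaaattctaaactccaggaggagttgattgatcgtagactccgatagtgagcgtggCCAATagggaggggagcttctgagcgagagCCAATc

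All 10 genes had RefSeq starts, 15 in all. Of these 15 windows of 250 bases 7 held CCAAT on either strand, 1 window each of Phgdh, Psat1, Psph, Gldc, Gcsh, Amt and Dao, against 33.8% of all 32851 promoter windows of that length. The Dao match lies before the most downstream of its 3 starts, outside the run shown. The letters TGATGNAAN, a form of the element bound by the amino acid response factor ATF4, were in none of the 15 windows on either strand and in 3.44% of all windows. Such matches describe letters in a window and no binding.

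Tissues were compared among astrocyte-like cells to ask where in the brain these genes differ within 1 class. Differences are on the log2(mean CPM + 1) scale with standard errors, from limma with Benjamini-Hochberg adjustment over all genes tested, which come from a panel of 5300 of the gene columns, nearly all drawn at random from the table. All 10 genes passed the filter on low levels, but Dao passed through CBX and MB/HB mice alone, so it had to differ from VISp and is left out of these counts. At an adjusted p under 0.05, 2 of the other 9 genes differed between CBX and VISp, 1 higher and 1 lower in CBX, where 11% of the 2980 genes tested differed (5.03% higher, 5.97% lower). Between MB/HB and VISp 6 of the 9 differed, 2 higher and 4 lower in MB/HB, against 13.4% of all genes tested (7.32% higher, 6.04% lower). Between CBX and MB/HB 3 of the 9 differed, 2 higher and 1 lower in CBX, against 9.16% (3.86% higher, 5.3% lower). The median change of the 9 genes was -0.23, -0.29 and 0.14 in the 3 comparisons, beside -0.06, -0.04 and 0 over all genes tested. The comparisons share mice, so their values stand side by side. Ranges of mice that do not overlap are given below as a description. The share of all genes tested with such ranges is not given. Averaging log2 values over cells raised the share of genes called between CBX and VISp to 24.2%, and the share of the called genes that were higher in CBX from 45.7% to 84.1%; between CBX and MB/HB the values were 25.3%, 42.1% and 85%. The median number of genes detected per astrocyte-like cell was 5323 in CBX, 4325 in VISp and 3943 in MB/HB.

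**Figure D2:**
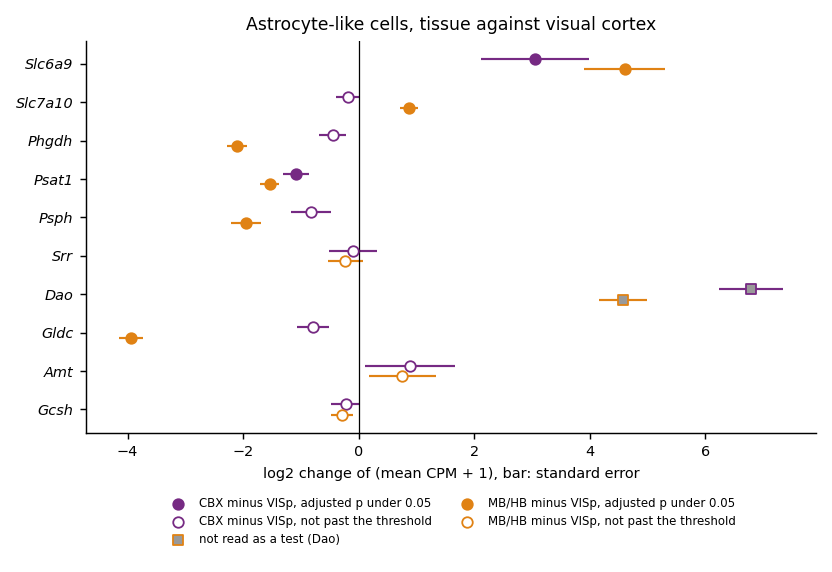
Change of log2(mean CPM + 1) in astrocyte-like cells of CBX (2 mice) and MB/HB (4 mice) against VISp (19 mice) for the 10 genes, with standard errors; filled circles have an adjusted p under 0.05, and grey squares mark Dao, which is not read as a test. Slc6a9 lay above 0 in both tissues, and Gldc, Phgdh, Psat1 and Psph lay below 0, all 4 filled in MB/HB.

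The carriers come first. Slc6a9 stood at 0 to 26.9 CPM in the 19 VISp mice (median 8.78), with 2 mice at 0. It stood at 81.7 and 53.9 CPM in CBX mice A and B. In MB/HB mice A to D it stood at 215.4, 239.3, 216.5 and 132.4 CPM. Neither tissue overlapped the VISp range, and every MB/HB mouse was above both CBX mice. Slc6a9 was higher than in VISp by 3.05 ± 0.94 (SE) in CBX (8.3-fold, adjusted p = 0.029) and by 4.60 ± 0.69 in MB/HB (24.3-fold, adjusted p = 1.01e-05). The CBX call was lost without CBX mouse A (adjusted p = 0.317), without CBX mouse B (0.18) and with a pseudocount of 0.1 CPM (0.144), while the MB/HB call was kept in all 17 alternatives. CBX and MB/HB differed by -1.55 ± 1.09, an adjusted p of 0.481.

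A mean over cells does not tell fewer expressing cells from less RNA per cell, so the share of cells with at least 1 read is given beside it. Slc6a9 was read in 62 of 81 CBX cells (76.5%, exact 95% interval 65.8 to 85.2%), in 76.5% of MB/HB cells (68.9 to 83.1%) and in 79 of 737 VISp cells (10.7%, 8.58 to 13.2%). Intervals cover counting error only. With every cell thinned to 100000 reads the shares were 73.5%, 74.3% and 10.2%. In single MB/HB mice the share was 92.5%, 50%, 87.8% and 69.4%.

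Slc6a9 is also read in oligodendrocyte-like cells, so oligodendrocyte RNA was measured beside it. The 12 oligodendrocyte markers summed to 1935 to 2224 CPM in CBX, 838.6 to 6262 CPM in MB/HB and 171.1 to 1311 CPM in VISp astrocyte-like cells, and of the 12 Cldn11 and Ugt8a were at 0 in CBX. In CBX most of that sum was Cnp, at 1900.0 CPM on average. Levels in oligodendrocyte-like cells of VISp served as the reference for both tissues. The mean sum was 2.48% of that reference in CBX and 2.89% in MB/HB, and Slc6a9 was at 61.2% and 181.4% of its own reference. MB/HB mouse D had the highest sum, 7.46% of the VISp oligodendrocyte-like level, and the lowest Slc6a9 of the 4 mice. The part of oligodendrocyte RNA in the Slc6a9 values was not tested. Without the cells that carried RNA of another class the changes were 3.00 in CBX and 4.53 in MB/HB (adjusted p = 0.0389 and 2.13e-05). Among mice whose cell names begin with AB, which are all CBX and MB/HB mice and 16 of the 19 VISp mice, the changes were 2.96 and 4.51. Exons of Slc6a9 share 38.6% of their length with 3 genes on the opposite strand, and whether counting used strand is not given in the sources used here, so their reads cannot be told apart. Of the partners, B4galt2 stood at 15.5 ± 9.13 CPM in VISp, 25.4 ± 18.3 in CBX and 19.4 ± 8.98 in MB/HB, Ccdc24 at 3.79 ± 2.21 in MB/HB and near 0 in both others, and Gm17114 at 0.

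Slc7a10 encodes Asc-1, an exchanger of small neutral amino acids that carries glycine and D-serine, and per kilobase it was the most abundant of the 10 genes in astrocyte-like cells of all 3 tissues. It stood at 1903, 1934, 1827 and 1469 CPM in the MB/HB mice, at 927.96 and 791.2 CPM in the CBX mice and at 707.8 to 1434 CPM in the VISp mice (median 967.9). All 4 MB/HB mice were above all others, and both CBX mice lay within the VISp range. MB/HB exceeded VISp by 0.86 ± 0.16 (1.82-fold, adjusted p = 0.000146), kept in all 17 alternatives, and the change of CBX against MB/HB was -1.05 ± 0.25 (2.07-fold lower, adjusted p = 0.00432). The second call was lost without CBX mouse B (adjusted p = 0.122) and when log2 values were averaged over cells (0.156). CBX and VISp differed by -0.18 ± 0.21 (adjusted p = 0.756). Reads were found in 95.9%, 96.3% and 98% of VISp, CBX and MB/HB cells. Exons of Slc7a10 share 17.9% of their length with Lrp3 on the opposite strand, which stood at 50.2 ± 23.5, 20.3 ± 4.81 and 141.4 ± 42.9 CPM in VISp, CBX and MB/HB; its part in the Slc7a10 values was not tested.

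All 6 endothelial markers were also higher in MB/HB than in VISp astrocyte-like cells, with log2 changes of 1.49 to 3.91. Their sum was 625.4, 1109, 7.23 and 68.5 CPM in mice A to D, against 0.341 to 23.1 CPM in VISp, and the 6 mural markers reached 1286 CPM in mouse B. Mouse C, with the lowest endothelial sum and the lowest oligodendrocyte sum, had 216.5 CPM of Slc6a9, 1827 of Slc7a10, 12.8 of Gldc and 119.1 of Phgdh, all inside the range of the other 3 MB/HB mice. Its Dao level, 49.6 CPM, was the highest of the 4, and mouse B, with the highest endothelial and mural sums, had the lowest at 6.61 CPM. The part of endothelial and mural RNA in the values of these genes was not tested.

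Of the D-serine genes, Dao had the widest range between tissues. Its level was 112.9 and 149.04 CPM in CBX mice A and B, and 34.8, 6.61, 49.6 and 44.1 CPM in MB/HB mice A to D. In the 19 VISp mice it was 0 to 0.711 CPM, with a median of 0.148 and 2 mice at 0. The 3 tissues did not overlap: each CBX mouse was above each MB/HB mouse, and each MB/HB mouse above each VISp mouse. On the log2(mean CPM + 1) scale Dao lay above VISp by 6.80 ± 0.55 in CBX and by 4.58 ± 0.41 in MB/HB (SE). These 2 values are a description without a test, since no VISp mouse reached the filter of 1 CPM, and they understate the ratio of the levels because the VISp level lies below the pseudocount. CBX exceeded MB/HB by 2.22 ± 0.65 (4.66-fold, adjusted p = 0.0245). That call was lost without CBX mouse A (adjusted p = 0.0885), without CBX mouse B (0.216), without MB/HB mouse B (0.0763), with the pseudocount of 0.1 CPM (0.231) and with the series of cell names as a block (0.0541). A series joins mice whose cell names begin alike, and 2 of the series hold mice of all 3 tissues.

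The share of cells with a read of Dao followed the same order. It was 79 of 81 cells in CBX (97.5%, 91.4 to 99.7%), 47.7% in MB/HB (39.4 to 56%) and 36 of 737 in VISp (4.88%, 3.44 to 6.7%). At 100000 reads per cell the shares were 94.2%, 35.1% and 1.51%. In VISp oligodendrocyte-like cells, taken as a class that should lack the gene, the share was 2.34% at a median depth of 442954 reads, and 0.653% at 100000 reads. The highest single cell had 22.8 CPM in VISp, 466.5 in CBX and 518.2 in MB/HB. MB/HB cells were unequal: the median cell had 0 CPM, the upper quartile was 13.1 CPM and the 90th percentile 110.99 CPM, whereas the lower quartile in CBX was 40.1 CPM. Of the MB/HB cells 6, all of 1 mouse, lay in the cluster that held most CBX cells. Dao stood there at 112.7 to 153.1 CPM per mouse, over that mouse and both CBX mice. In the cluster of most MB/HB cells it averaged 29.2 ± 20.9 CPM (SD, n = 4). The part of those 6 cells in the MB/HB values was not tested. In MB/HB mice A to D the share was 45%, 34.4%, 58.5% and 50%.

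**Figure D3:**
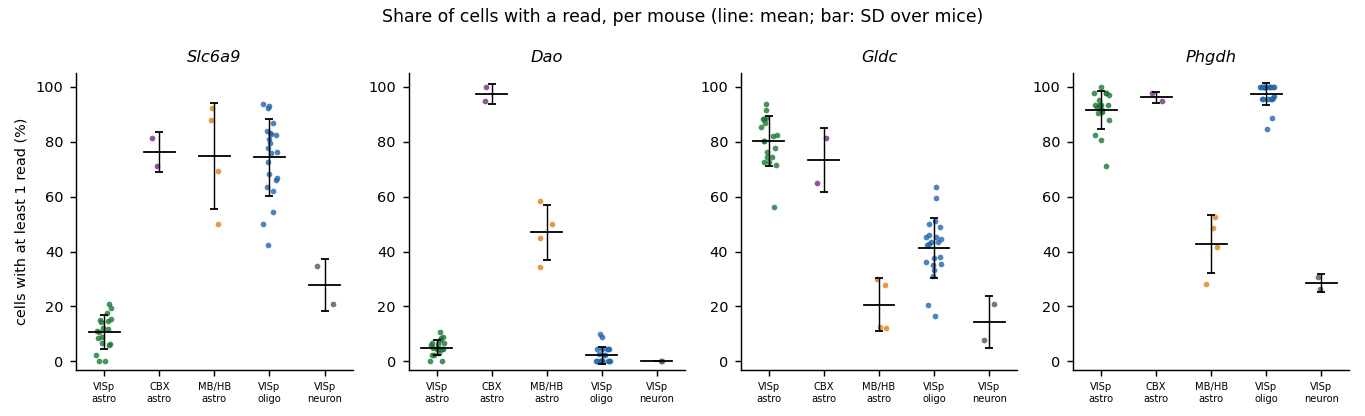
Percent of cells with at least 1 read of Slc6a9, Dao, Gldc and Phgdh in each mouse (points), with means and SD over mice, in the same groups as the plot of levels. For Dao the CBX mice stood at 100% and 94.7% and the MB/HB mice at 34.4 to 58.5%; for Gldc the MB/HB mice stood at 30%, 12.5%, 12.2% and 27.8%.

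Slc6a9 and Dao were then read together in single cells. All 62 CBX cells with Slc6a9 also had Dao, as did 17 of the 19 without it. In MB/HB 56 cells had both genes, 58 Slc6a9 alone, 15 Dao alone and 20 neither. Of cells with Slc6a9 49.1% had Dao, and of the others 42.9%. In MB/HB mice A to D these pairs were 45.9% and 33.3%, 37.5% and 31.25%, 55.6% and 80%, and 52% and 45.5%. Mouse C thus went the other way, and cells without Slc6a9 were few (3, 16, 5 and 11). In VISp 3 of 79 cells with Slc6a9 had Dao (3.8%), and 5.02% of the others did.

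**Figure D4:**
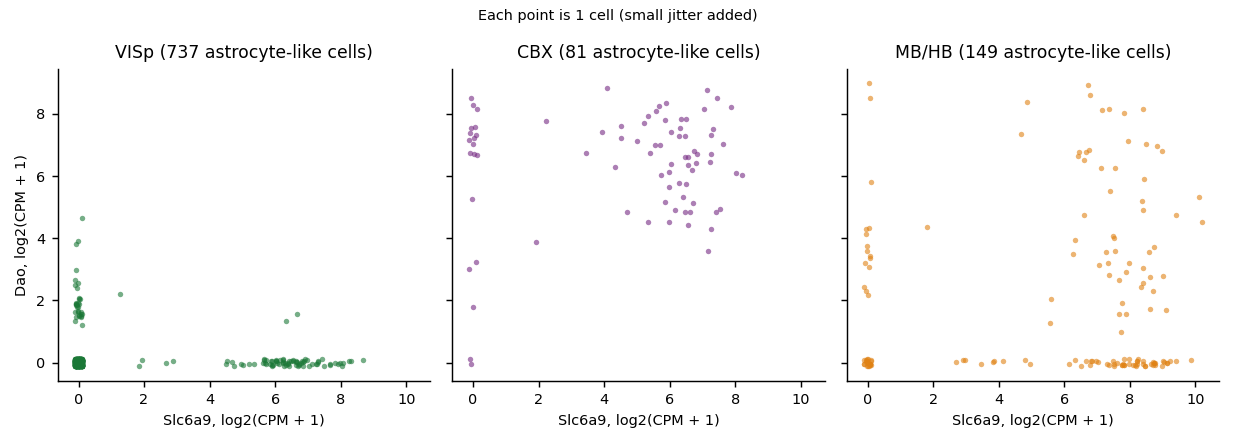
Slc6a9 against Dao in single astrocyte-like cells, both as log2(CPM + 1), for VISp (737 cells), CBX (81 cells) and MB/HB. VISp cells with Dao stay at or below 22.8 CPM, CBX cells lie high on the Dao axis, and MB/HB cells form groups with both genes (56 cells), Slc6a9 alone (58), Dao alone (15) and neither (20).

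Srr, the serine racemase gene, was not called in any tissue comparison. Its level was 51.3 ± 14.6 CPM in VISp (SD, n = 19), 49.4 and 42.6 CPM in the CBX mice, and 66, 18.6, 29.9 and 81.8 CPM in MB/HB mice A to D. Both ranges overlapped that of VISp. The changes were -0.10 ± 0.41 in CBX and -0.23 ± 0.30 in MB/HB (adjusted p = 0.935 and 0.701), which does not show that the levels were alike. Srr shares 30% of its exon length with Tsr1 and Smg6, whose mean levels in the 3 tissues ran from 16.9 to 46.6 CPM, so Srr values are uncertain.

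The 3 serine synthesis genes were lower in MB/HB than in VISp. Phgdh, the first step, stood at 119.7, 104.7, 119.1 and 68.9 CPM in MB/HB mice A to D and at 308.9 to 634.1 CPM in VISp (median 435.7). The change was -2.11 ± 0.17 (4.31-fold lower, adjusted p = 4.42e-11). Psat1, the aminotransferase, stood at 124.6, 133.5, 169.7 and 239.7 CPM against 336.8 to 669.6 CPM (median 464.4), a change of -1.54 ± 0.16 (2.92-fold lower, adjusted p = 1.83e-08). Psph, the phosphatase of the last step, stood at 44.6, 25.8, 32.7 and 86.4 CPM against 92.6 to 286.6 CPM (median 173.3), a change of -1.95 ± 0.25 (3.87-fold lower, adjusted p = 8.36e-07). All 4 MB/HB mice were below all 19 VISp mice for each of the 3 genes, and the 3 calls were kept in all 17 alternatives. Oligodendrocyte-like cells carry more Psat1 than astrocyte-like cells, and MB/HB mouse D, with the highest sum of oligodendrocyte markers, had the highest Psat1 and Psph of the 4 mice. The part of oligodendrocyte RNA in these values was not tested. Without cells that carried RNA of another class the changes were -2.06, -1.47 and -1.86. Psph shares 10.4% of its exon length with Cct6a, which stood at 144.4 ± 30.7 CPM in VISp and 98.1 ± 21.4 in MB/HB.

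In CBX 1 of the 3 passed the threshold. Psat1 stood at 263.2 and 187.8 CPM, both below the VISp range, with a change of -1.08 ± 0.22 (2.12-fold lower, adjusted p = 0.000697). The call was lost without CBX mouse B (adjusted p = 0.132) and when log2 values were averaged over cells (0.422). Phgdh at 373.2 and 274.7 CPM and Psph at 94.2 and 94.1 CPM had changes of -0.45 ± 0.23 and -0.82 ± 0.34 (adjusted p = 0.278 and 0.137). Between CBX and MB/HB, Phgdh was higher in CBX by 1.66 ± 0.27 (3.16-fold, adjusted p = 4.21e-05), while Psat1 (0.46 ± 0.26, adjusted p = 0.333) and Psph (1.13 ± 0.40, adjusted p = 0.0781) did not pass. Both passed when log2 values were averaged over cells (Psat1 3.11, adjusted p = 0.000733; Psph 2.76, adjusted p = 0.0194), and Psph also without MB/HB mouse D (1.46, adjusted p = 0.0111). Phgdh was read in 43.6% of MB/HB cells (35.5 to 52%), 96.3% of CBX cells and 92.1% of VISp cells. Over MB/HB cells the median Phgdh was 0 and the upper quartile 174.8 CPM, against a median of 412.1 CPM over VISp cells.

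The glycine cleavage genes did not move together. Gldc, the decarboxylase, stood at 16.8, 10.2, 12.8 and 15.1 CPM in MB/HB mice A to D, at 110.1 and 147.9 CPM in the CBX mice and at 123.02 to 322.7 CPM in the VISp mice (median 227.8). MB/HB lay below all other mice, and CBX mouse B lay within the VISp range. The change of MB/HB against VISp was -3.94 ± 0.21 (15.4-fold lower, adjusted p = 3.06e-15), CBX exceeded MB/HB by 3.15 ± 0.33 (8.87-fold, adjusted p = 1.68e-08), and both calls were kept in all 17 alternatives. CBX differed from VISp by -0.79 ± 0.28, an adjusted p of 0.0678 that fell to 0.0392 when recovered reads were summed per mouse. Gldc was read in 20.8% of MB/HB cells (14.6 to 28.2%), 72.8% of CBX cells and 79.9% of VISp cells, and at 100000 reads in 12.6%, 71.1% and 75.6%.

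Amt and Gcsh passed the threshold in none of the 3 tissue comparisons. Gcsh, which encodes the lipoyl-carrying H protein, stood at 166.6 ± 36.8 CPM in VISp (SD, n = 19), 156.9 and 123.2 CPM in CBX and 103.1, 199.1, 152.3 and 100.4 CPM in MB/HB, with changes of -0.23 ± 0.26 and -0.29 ± 0.19 (adjusted p = 0.754 and 0.387). Amt stood at 2.41 to 57.9 CPM in VISp (median 5.95), 11.2 and 22.1 CPM in CBX and 19.9, 11.1, 13.4 and 13.8 CPM in MB/HB, with changes of 0.89 ± 0.79 and 0.75 ± 0.58 (adjusted p = 0.642 and 0.485). Averaged as log2 values over cells, Gcsh was called lower in MB/HB than in VISp (-1.55, adjusted p = 0.00297) and higher in CBX than in MB/HB (2.57, adjusted p = 0.000888), and Amt higher in CBX (0.79, adjusted p = 0.018). The share of cells with Gcsh was 43% in MB/HB, 62.3% in VISp and 79% in CBX.

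Astrocyte-like and oligodendrocyte-like cells of VISp were compared to ask how the genes are divided between the glial classes. No mouse entered both groups, and each class was reached by its own vectors, so class and vector cannot be told apart. Of the 10 genes 9 were tested, Dao being below the filter, and all 9 differed: 6 were higher in astrocyte-like cells and 3 in oligodendrocyte-like cells. Of all 3014 genes tested 58.7% differed, 38.6% higher and 20.1% lower in astrocyte-like cells, so a call alone says little here. With the series of cell names as a block 6 of the 9 differed, beside 44.8% of all genes; Amt (adjusted p = 0.054), Srr (0.0699) and Phgdh (0.19) did not pass. The median change was 0.60 over the 9 genes and 0.26 over all genes.

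Slc7a10 and Gldc had the largest changes of the 9. Slc7a10 stood at 0 to 28.1 CPM in the 22 mice of oligodendrocyte-like cells (median 3.66, 8 mice at 0), against 707.8 to 1434 CPM in the 19 mice of astrocyte-like cells, a change of 8.05 ± 0.37 (adjusted p = 1.68e-24). Gldc stood at 0.733 to 19.9 CPM (median 2.18) against 123.02 to 322.7 CPM, a change of 5.73 ± 0.26 (53.2-fold, adjusted p = 6.16e-25). Neither pair of ranges overlapped. Gcsh was higher in astrocyte-like cells by 1.80 ± 0.15 (3.47-fold, adjusted p = 3.92e-15) and Amt by 1.34 ± 0.34 (2.53-fold, adjusted p = 0.000611), the latter with overlapping ranges. Slc7a10 was read in 3.19% of oligodendrocyte-like cells and Gldc in 42.1%, the latter falling to 14.7% at 100000 reads; the upper quartile of Gldc over these cells was 2.47 CPM.

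Slc6a9, Psat1 and Phgdh were higher in oligodendrocyte-like cells. Slc6a9 stood at 55.9 to 186.7 CPM (median 106.99) against 0 to 26.9 CPM in astrocyte-like cells, a change of -3.73 ± 0.31 (13.2-fold lower in astrocyte-like cells, adjusted p = 1.31e-14), and 74.9% of oligodendrocyte-like cells had a read. Psat1 stood at 1205 to 1543 CPM (median 1376) against 336.8 to 669.6 CPM, a change of -1.54 ± 0.07 (2.91-fold lower, adjusted p = 1.49e-25), and 99.1% of oligodendrocyte-like cells had a read. Neither pair overlapped. The change of Phgdh was small: it stood at 502.3 ± 65.3 CPM (SD, n = 22) against 446.9 ± 94.1 CPM (SD, n = 19), with overlapping ranges and a change of -0.19 ± 0.08 (adjusted p = 0.0424). That call was lost in 5 of 11 alternatives, among them the mice whose cell names begin with AB (adjusted p = 0.0589). Psph, at 128.8 ± 26.3 against 175.03 ± 53.4 CPM, was higher in astrocyte-like cells by 0.41 ± 0.12 (adjusted p = 0.00237), and Srr, at 34.5 ± 12.5 against 51.3 ± 14.6 CPM, by 0.60 ± 0.16 (adjusted p = 0.00146). Both calls were lost when log2 values were averaged over cells (adjusted p = 0.748 and 0.267). Cct6a, which shares exon bases with Psph, stood at 322.3 ± 50.5 CPM in oligodendrocyte-like cells.

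Levels also varied between clusters of a class. An oligodendrocyte-like cluster that was lower in Ivd and Efna1 and higher in Snap25 and Cdk8 than the main one had Slc6a9 at 52.7 against 134.4 CPM over the 7 mice with at least 3 cells of each, and was the lower in all 7. Phgdh (371.9 against 514.4 CPM) and Srr (14.2 against 44.1 CPM) were also the lower in all 7, and Psat1 (1440.0 against 1417 CPM) in 3 of 7. Another cluster of 75 cells, lower in Dgat2 and higher in Slc27a1 and Pmp22, had Psat1 at 1665 against 1383 CPM and was the higher in 10 of 11 mice. Of the main VISp astrocyte-like clusters, the one higher in Med22 and Id3 exceeded the other in Phgdh in 18 of 19 mice (520.8 against 384.8 CPM) and in Psph in 16 of 19 (216.99 against 134.4 CPM), while Gcsh was the higher in 9 of 19. These values describe clusters of the same cells and were not tested.

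Neuron-like cells were few and are given as values. The 60 VISp cells came from 10 mice and all had reads of Gad1 and Gad2, markers of inhibitory neurons. At least 10 such cells came from 2 mice, both given the vector MBP_promoter. Dao was at 0 in all 60 cells, which at 3 counts of the total allows a share of cells with a read of up to 5%, and Slc7a10 was read in 1 cell. In the 2 mice Slc6a9 was at 3.1 and 3.97 CPM, Gldc at 3.67 and 0.158 CPM and Phgdh at 4.8 and 20.8 CPM, below every VISp astrocyte-like mouse for Gldc and Phgdh and within their range for Slc6a9. Gcsh, at 149.5 and 131.8 CPM, lay within the astrocyte-like range, and 60 of 60 cells had a read. Srr was at 19.2 and 25.4 CPM and read in 48 of 60 cells. Psat1 (59.2 and 99.4 CPM) and Psph (76.8 and 60.5 CPM) were below every glial mouse of VISp. The median neuron-like cell of VISp had 8350 genes detected, against 4325 in astrocyte-like cells, so shares of cells are not on an equal footing between classes.

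In MB/HB 15 neuron-like cells came from 4 mice. Slc6a9, Dao and Slc7a10 were at 0 in all 15, which on the same 3 counts allows shares of up to 20%. The next interval is an exact one. Slc6a5, which encodes the neuronal glycine carrier GlyT2, was read in 5 of them (33.3%, 11.8 to 61.6%), with a mean of 48.1 CPM, and in 2 of the 60 VISp cells. Srr, at a mean of 53.1 CPM, was read in 11 of the 15 cells, and Phgdh, at 2.23 CPM, in 2.

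The vector given was tested within VISp. Only vectors with at least 2 mice of the class entered this test. In astrocyte-like cells none of the 2684 genes tested passed the threshold in limma's F-test over these vectors (0% called, 4.69% with an unadjusted p under 0.05). Of the 9 members tested none had an unadjusted p under 0.05. Over all 12 vectors in 19 mice, those with 1 mouse included, vector means ran from 308.9 to 564.1 CPM for Phgdh. They ran from 772.5 to 1434 CPM for Slc7a10 and from 0 to 18.1 CPM for Slc6a9. In oligodendrocyte-like cells the count was also 0 of 2307 genes (0% called, 6.33% with an unadjusted p under 0.05). The member with an unadjusted p under 0.05 there was Slc7a10, with an adjusted p of 0.603. Its vector means over all 15 vectors in 22 mice ran from 0 to 26 CPM.

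Other genes of these pathways were described from 5 lists. None of the 11 folate one-carbon enzymes tested, which pass on the carbon of serine and glycine, was called between tissues by limma. Of all genes 11% were called between CBX and VISp, 13.4% between MB/HB and VISp and 9.16% between CBX and MB/HB. In CBX and in MB/HB against VISp 1 of the 11 had an unadjusted p under 0.05, beside 20.5% and 24.5% of all genes. Between CBX and MB/HB 2 had, beside 20.3%. The absence of a call among 11 genes does not show that the levels were alike. Of 12 other enzymes that use glycine, serine or D-amino acids 2 were higher and 2 lower in CBX, beside 11% of all genes called. Gatm, which uses glycine and arginine in creatine synthesis, stood at 368.7 ± 64 CPM in CBX against 94.8 ± 32.2 in VISp (2.02 ± 0.37, adjusted p = 0.000129). Sdsl, a serine dehydratase-like gene, stood at 5.87 against 39.2 CPM (-3.45 ± 0.50, adjusted p = 5.12e-06), a call lost without CBX mouse B (0.0515). Cth, the last step from serine to cysteine, stood at 33.6 against 159.8 CPM (-2.18 ± 0.39, adjusted p = 0.000118). In MB/HB 1 of the 12 was higher and 3 were lower, beside 13.4% of all genes called. Gamt, which completes creatine, stood at 13.6 against 44.4 CPM (-1.57 ± 0.40, adjusted p = 0.00698) and Cth at 71.1 CPM (-1.15 ± 0.29, adjusted p = 0.00587), calls lost without MB/HB mouse D (0.0658 and 0.0673), that of Gamt also with averaged log2 values (0.073). Gatm, at 189.4 CPM in MB/HB (0.99 ± 0.27, adjusted p = 0.011), stood at 4953 CPM in oligodendrocyte-like cells, and its MB/HB call was lost in 6 of 17 alternatives, with adjusted p up to 0.244, among them the fit without the cells that carried RNA of another class (0.55, adjusted p = 0.191) and those without MB/HB mouse B (0.089) or D (0.0753). Between CBX and MB/HB Sdsl alone of the 12 was called, lower in CBX (-3.51 ± 0.59, adjusted p = 6.45e-05), beside 9.16% of all genes called. That call was lost without CBX mouse B.

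Of 11 other carriers of glycine, serine and neutral amino acids 1 was higher and 3 lower in CBX, and the same counts held in MB/HB, beside the same shares of 11% and 13.4% of all genes. Between CBX and MB/HB 2 were higher and 2 lower in CBX, beside 9.16%. Slc38a1, a sodium-coupled carrier of glutamine and other neutral amino acids, stood at 1019.8 to 1112 CPM in the CBX mice against 0 to 11.2 CPM in VISp (9.09 ± 1.02, adjusted p = 3.47e-08). In MB/HB it stood at 1.38 to 186.3 CPM (3.13 ± 0.75, adjusted p = 0.00375), a call lost without MB/HB mouse A (0.0719), and CBX exceeded it by 5.96 ± 1.19 (adjusted p = 0.000674). The part of the 6 MB/HB cells in the cluster led by Slc38a1, all of 1 mouse, was not tested. Slc38a3, another glutamine carrier, was at 137.6 CPM in CBX against 885.8 CPM in VISp (-2.66 ± 0.27, adjusted p = 4.13e-09) and was lower than in MB/HB (-2.24 ± 0.31, adjusted p = 3.52e-06). The serine carrier Slc1a4 was at 68.7 against 327.1 CPM (-2.21 ± 0.40, adjusted p = 0.000109). Sfxn1, which carries serine into mitochondria, was at 67.6 ± 27.5 CPM in MB/HB against 256.3 ± 46.8 CPM in VISp (-1.97 ± 0.19, adjusted p = 1.64e-09). It was at 410.3 CPM in CBX, above MB/HB by 2.65 ± 0.30 (adjusted p = 5.52e-08). Slc38a2 was at 4.23 CPM in MB/HB against 26.6 CPM (-2.62 ± 0.85, adjusted p = 0.0361), a call lost in 6 of 17 alternatives: without MB/HB mouse B (0.187), C (0.159) or D (0.0566), with no filter on low values (0.0732), with averaged log2 values (0.246) and with the block (0.169).

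Of 12 glycine and NMDA receptor subunits, Grin3b not counted as called, 3 were lower in CBX, beside 5.97% of all genes called lower. In MB/HB 2 were lower and Grin3a was higher, beside 6.04% and 7.32% of all genes. Grin3b stood at 2.13 to 2.94 CPM in CBX and 0 to 8.61 CPM in MB/HB and is listed at 0 in all VISp mice. Like Dao, it passed the filter through the other tissues, so it is given without a test and left out of these counts. Grin2c stood at 3.34 to 6.66 CPM in CBX against 142.3 to 296.5 CPM in VISp (-5.10 ± 0.29, adjusted p = 2.15e-14) and at 54.7 to 153.6 CPM in MB/HB (-1.06 ± 0.22, adjusted p = 0.000733), where it was above CBX (CBX minus MB/HB -4.04 ± 0.34, adjusted p = 4.63e-10). Grin3a stood at 55.5 to 161.9 CPM in MB/HB against 0 to 45.2 CPM in VISp (3.41 ± 0.75, adjusted p = 0.00144). Glrb, the beta subunit of the glycine receptor, was lower in both tissues, at 22.1 CPM in CBX and 72.9 CPM in MB/HB against 137.3 CPM (-2.58 ± 0.39 and -1.17 ± 0.29), the MB/HB call being lost without mouse B (adjusted p = 0.114). Of all genes 9.16% were called in the comparison of CBX with MB/HB, 5.3% as lower in CBX. Between CBX and MB/HB 3 of the 12 were called, all lower in CBX: Grin2c, Glrb (-1.41 ± 0.45, adjusted p = 0.0451), a call lost in 11 of 17 alternatives (adjusted p up to 0.436, without CBX mouse B), and Gphn, which encodes the receptor anchor gephyrin (-1.28 ± 0.30, adjusted p = 0.00493), a call lost without CBX mouse B (0.16) and with averaged log2 values (0.0728). Of 6 amino acid response genes Asns was higher in CBX (11.1 against 1.03 CPM, 2.79 ± 0.68, adjusted p = 0.00469), a call lost without CBX mouse A (0.282) and with the class called in each cell (0.0675). Asns was also above MB/HB (2.87 ± 0.79, adjusted p = 0.0173), a call lost without CBX mouse A (0.33), with the pseudocount of 0.1 CPM (0.111) and with recovered reads (0.0538). Ddit3 was lower in MB/HB (46.4 against 87.2 CPM, -0.91 ± 0.28, adjusted p = 0.026), a call lost without MB/HB mouse A (0.0853) or D (0.187) and with the block (0.138). Each of these comparisons called 1 of the 6 response genes. Of all genes 5.03% were called higher in CBX than in VISp and 3.86% higher in CBX than in MB/HB. In MB/HB 6.04% were called lower than in VISp.

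**Figure D5:**
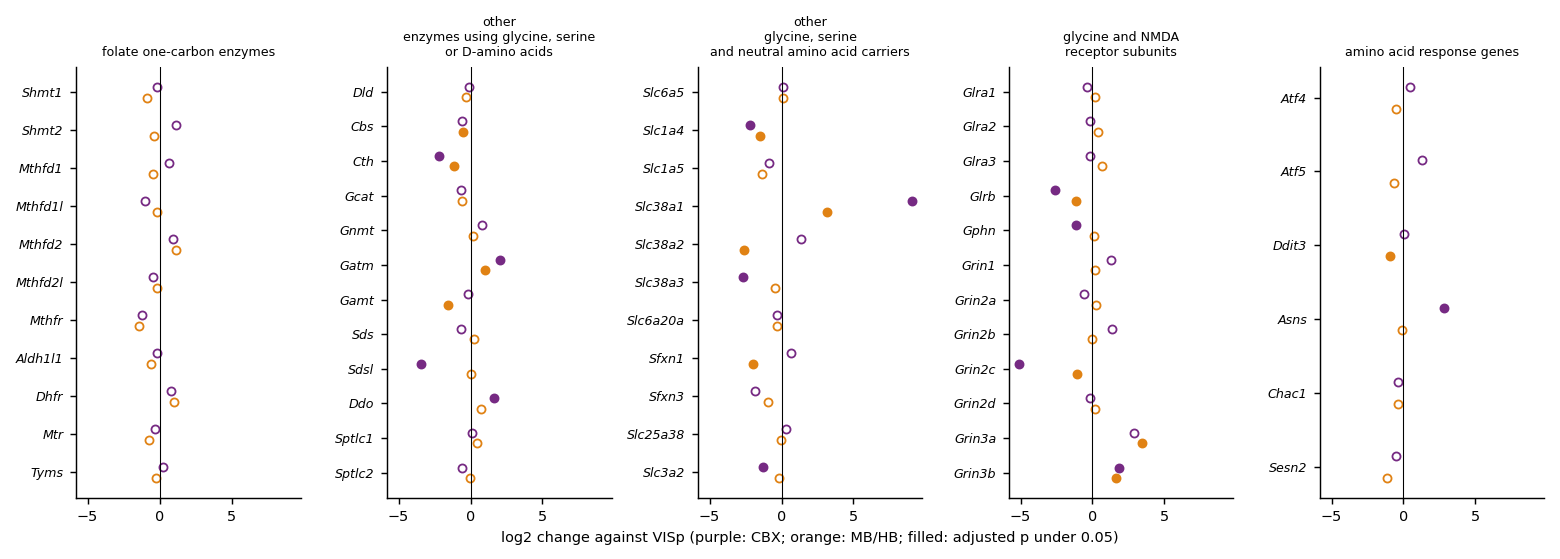
Change of log2(mean CPM + 1) in astrocyte-like cells of CBX and MB/HB against VISp for the tested genes of the 5 lists; filled points have an adjusted p under 0.05. The folate enzymes have no filled point, and Slc38a1 (9.09 in CBX) and Grin2c (-5.10 in CBX) lie farthest from 0. Grin3b is drawn filled, but it is at 0 in VISp and not read as a test.

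Between the glial classes the counts of the lists stand beside 58.7% of all genes called (38.6% higher and 20.1% lower in astrocyte-like cells). Of 12 folate enzymes 6 were higher in astrocyte-like and 4 in oligodendrocyte-like cells: Aldh1l1 (433.3 against 9.59 CPM) and Mthfd2l (48.8 against 7.4 CPM) were higher in the former and Mthfd2 in the latter (58.1 against 8.69 CPM). Of the 12 other enzymes tested 6 were higher in astrocyte-like cells, among them Cbs (358.3 against 7.35 CPM) and Cth (159.8 against 2.41 CPM), and 3 in oligodendrocyte-like cells, among them Gatm (4953 against 94.8 CPM). Of 11 carriers 5 were higher in astrocyte-like cells, among them Slc38a3 (885.8 against 4.96 CPM), Slc1a4 (327.1 against 1.96 CPM) and Sfxn1 (256.3 against 3.27 CPM), and 1, Slc38a2, was higher in oligodendrocyte-like cells (820.3 against 26.6 CPM). Of 12 receptor subunits 6 were higher in astrocyte-like cells, led by Grin2c (201.1 against 1.7 CPM), Grin2b (36.3 against 6.65 CPM) and Grin3a (12.6 against 1.17 CPM), and Glrb was higher in oligodendrocyte-like cells. Of the 6 amino acid response genes 3 were higher in astrocyte-like cells, among them Sesn2 (21.4 against 1.17 CPM) and Atf5 (2.23 against 0.629 CPM), and Asns was higher in oligodendrocyte-like cells (5.21 against 1.03 CPM), a call lost with the series of cell names as a block (adjusted p = 0.232).

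The genes most like Slc6a9 and Dao were taken by the Pearson correlation of levels over the 25 astrocyte-like mice among the 2980 genes tested, as a description. The 25 points fall into 3 tissues and share tissue and vector. For Dao they were Casp12 (0.90), Ucma (0.90), Irx1 (0.89), Itih3 (0.88) and Paqr6 (0.88), and for Slc6a9 Paqr6 (0.79), Itih3 (0.79), Atp1b2 (0.79), Chl1 (0.78) and Gpld1 (0.78). Slc6a9 and Dao correlated at 0.72.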

How the data were processed

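Single SYFP2-positive cells were flow sorted into SMARTerv4 buffer, per the labels; STAR and the build mm10 are named in the submitters' processing notes. The authors deposited CPM per cell: each of the 2040 lines sums to 1000000, and all positive values are whole multiples of what 1 read is worth within 0.001 reads, which gave each cell's depth (57873 to 1455022 reads, median 434102). How the authors counted reads is not given in the sources used here.

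Tests used 5300 gene columns: listed genes (the 10 genes, 5 pathway lists, 9 marker lists) and 5157 drawn at random. A further 6 columns of overlapping genes were added after the gene models had been seen; 26939 others served only for depth and genes detected. The genes and lists were chosen with earlier results of these data known. Mice are taken as the labels number them, and nothing says whether they share litters.

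Clusters came from 2000 variable genes without the pathway genes, 30 principal components and 15 neighbours (leidenalg 0.10.2, resolution 1). No doublet caller was run; a cluster with markers of a second class stayed unnamed. Levels were log2(mean CPM + 1) per mouse with at least 10 cells of the class. Genes with a mean of at least 1 CPM in 2 mice were tested with limma 3.58.1 (trend, two-sided, Benjamini-Hochberg, 0.05), the 3 tissues in 1 model. The fits were tested on simulated data. Named were all 10 genes, up to 3 called genes of each list with the largest change in each comparison, genes already named in another comparison, Slc38a2 as the 1 carrier higher in oligodendrocyte-like cells, and the 5 genes most like Slc6a9 and Dao. A planned count model was replaced by limma on recovered reads summed per mouse, since the table holds CPM.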

Additional observations from a re-analysis of the deposited data

How the results depend on the processing

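CBX has 2 mice, and its comparisons moved most over the 43 alternatives. The next counts of the 10 genes include Dao, whose call against VISp is not read as a test, since it had to differ there. A fit without CBX mouse A or B has no replicate in CBX, so its counts are a description only. Without CBX mouse B 1 of the 10 genes, Dao, was called against VISp and 2, Gldc and Phgdh, against MB/HB, rather than 3 and 4 with Dao counted; over single mice left out these counts ran from 1 to 3 and from 2 to 5. Leaving out CBX mice A or B, the share of all genes called was 7.1% and 5.81% against VISp and 5.41% and 4.02% against MB/HB, and over all mice left out it ran from 5.81% to 12.1% and from 4.02% to 9.62%. With log2 values averaged over cells it was 24.2% and 25.3%. Between vectors the share, 0%, became 0.364% and 0.124% (astrocyte-like and oligodendrocyte-like cells) with no filter, 0.075% and 0.043% with averaged log2 values, and at most 0.038% (without a mouse of eHGT_374m) and 0.437% (without a mouse of MBP_promoter) with mice left out.

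Signs turned for changes that were not called. With averaged log2 values these were Gcsh (1.02), Srr (0.86) and Slc7a10 (0.0566) in CBX against VISp. Without cells carrying RNA of another class they were Gcsh (-0.0003) and Srr (-0.0044) in CBX against MB/HB. With single mice left out, Srr ran from -0.20 to 0.01 in CBX (0.0066 without CBX mouse B) and from -0.55 to 0.15 in MB/HB against VISp, and in CBX against MB/HB Gcsh ran from -0.11 to 0.25, Srr from -0.25 to 0.45 and Amt from -0.33 to 0.60 (-0.015 with the block). The cause was not tested. No paired test was run, because the groups tested shared no mouse with at least 10 cells of each. The neuron-like cells came from mice that also gave glial cells, and they were not tested. A block for the series of cell names, chosen after seeing the data, called 10.2%, 9.4% and 8.52% of all genes in the tissue comparisons. The planned count model was not run. Depth limits low levels, such as Dao in VISp and Amt.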
